A study of Homo sapiens with 26 samples.

Results

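Chromosome 20 was followed through single-cell maps of the DNA that a free Dam methyltransferase could reach. Its members are the 100 kb bins of the deposited table that lie on chromosome 20 (hg19), hold a value and are above 0 in at least 1 cell. Of the 631 bins of the chromosome, 597 met this rule, 31 had no value and 3 were 0 in every cell. In the whole series 26331 of 30376 bins met it, so chromosome 20 made up 2.27% of the used bins. The unused bins of the chromosome lay around the centromere, apart from the incomplete last bin.

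The 26 cells belong to the human leukaemia line KBM7, which was derived from chronic myeloid leukaemia and carries a nearly haploid genome. All came from clone 5-8, were labelled 1N and carried Dam not fused to another protein, although the series title speaks of lamin B1. Methylation was induced for 15 h with 0.5 nM Shield1, a ligand that stabilises a destabilised protein, and the smallest 2% of cells by light scatter that carried both Fucci markers, which report cell cycle phase, were taken. There is 1 group and 1 clone, so no treatment was compared. SDs below describe how single cells of 1 culture differ, and cells are not replicate cultures, so they support no p-value.

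Dam is a bacterial enzyme that methylates the adenine of GATC. Unfused Dam marks open chromatin more than compact chromatin, and for this reason it serves as the reference for Dam fusions in DamID. Gene-rich, early replicating bands of human chromosomes are usually open, while gene-poor bands often lie at the nuclear lamina. On chromosome 20 the long arm holds many housekeeping and cancer genes, and its deletion or gain is recurrent in blood disorders and tumours. Band 20p12 is known for a few large or developmental genes with wide spaces between them.

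The target of the enzyme can be seen in promoters of genes from both sides of the comparison, shown here because every count in the data starts at such a site. The capitals mark GATC, the lower-case letters are the remaining bases, 5′ to 3′ on the strand of the gene, from 250 bases before to 50 after its start. The sequences are RefSeq's on build GRCh38.p14, whose coordinates are not those of the hg19 bins. KIF16B, a kinesin motor of endosomes in band 20p12.1 (chr20:16573399-16573698, minus strand), has 3 sites.
KIF16B: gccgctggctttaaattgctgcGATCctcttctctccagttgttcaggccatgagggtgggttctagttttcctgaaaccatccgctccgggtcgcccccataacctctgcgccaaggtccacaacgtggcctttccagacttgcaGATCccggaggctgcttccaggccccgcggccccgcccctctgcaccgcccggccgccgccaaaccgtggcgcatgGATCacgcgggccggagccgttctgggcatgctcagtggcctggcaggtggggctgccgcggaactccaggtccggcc
BCL2L1, an inhibitor of apoptosis in band 20q11.21 (chr20:31723914-31724213, minus strand), has 2 sites, and another RefSeq promoter of this gene has 1.
BCL2L1: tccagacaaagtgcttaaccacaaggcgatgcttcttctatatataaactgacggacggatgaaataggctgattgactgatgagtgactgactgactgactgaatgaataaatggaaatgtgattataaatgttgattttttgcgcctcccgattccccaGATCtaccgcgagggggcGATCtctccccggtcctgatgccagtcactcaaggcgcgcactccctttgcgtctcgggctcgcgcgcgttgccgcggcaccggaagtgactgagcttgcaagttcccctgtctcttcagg
JAG1, a Notch ligand in band 20p12.2 (chr20:10673950-10674249, minus strand), has none in this window.
JAG1: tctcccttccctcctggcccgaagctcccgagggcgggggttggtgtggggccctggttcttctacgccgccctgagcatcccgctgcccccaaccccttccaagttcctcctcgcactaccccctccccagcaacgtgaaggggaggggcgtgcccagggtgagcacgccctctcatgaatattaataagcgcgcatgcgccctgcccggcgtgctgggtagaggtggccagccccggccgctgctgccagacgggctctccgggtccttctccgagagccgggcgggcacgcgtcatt
GATC, which reads the same on both strands, occurs in 401 of 921 RefSeq promoters of chromosome 20 (43.5%) and in 14655 of 35116 promoters of all chromosomes (41.7%). A bin of 100 kb is far wider than a promoter, so the data do not resolve these sites and no value below belongs to 1 gene.

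The values are ratios of observed over expected signal. The whole counts behind them were recovered as described under the processing. They totalled between 20183 in cell 21 and 178946 in cell 1, and between 492 and 5222 on chromosome 20, with a median of 1313, or 2.20 per used bin. A single bin in a single cell therefore carries a large counting error. The level of a stretch is its mean ratio over the mean ratio of all other autosomes in the same cell, so a level of 1 is the autosomal mean. The share of all used bins above 0 ran from 34.3% in cell 22 through a median of 62.3% to 94.9% in cell 1, with cell 23 next to the lowest at 36.8%. Cells 17, 22 and 24 stood apart on chromosome 20 itself, in stretches described below, and values without them are given beside the results they move most.

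Chromosome 20 as a whole was marked somewhat above the other autosomes. Its level averaged 1.15 ± 0.219 (SD, n = 26 cells), with a lowest cell at 0.806 (cell 17), a median of 1.10 and a highest cell at 1.87 (cell 24). It was above 1 in 22 of 26 cells. Summed over cells, 41351 counts gave 1.13 times the autosomal signal per unit of expectation (95% Poisson interval 1.12 to 1.14, exact, for counting error only). Without cell 24 the mean was 1.12 ± 0.165 and without cell 17 it was 1.16 ± 0.211.

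This mean hides 2 unlike arms. The long arm, with 335 used bins, had a level of 1.30 ± 0.261 (SD, n = 26), with a lowest cell at 0.851, a median of 1.25 and a highest cell at 2.12. The short arm, with 262 used bins, had a level of 0.962 ± 0.205, with a lowest cell at 0.556, a median of 0.930 and a highest cell at 1.55. The log2 ratio of long over short arm averaged 0.43 ± 0.25 and was positive in 25 cells. The exception was cell 23, at -0.53, whose short arm had a level of 1.23 against 0.851 on its long arm.

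The comparison of 20q11-q13 with 20p12 gave the wider difference. Here 20q11-q13 is the whole long arm, and 20p12 is the stretch from 5 to 18 Mb with 130 used bins. Band limits come from textbook knowledge, rounded to whole Mb. The level of 20p12 was 0.689 ± 0.173 (SD, n = 26), with a lowest cell at 0.351 (cell 10), a median of 0.691 and a highest cell at 1.05 (cell 24). The ranges of the long arm and of 20p12 overlap between cells, yet within every cell the long arm was higher. The log2 ratio averaged 0.93 ± 0.31, a 1.90-fold difference, from 0.37 in cell 23 to 1.65 in cell 10. Summed counts gave 1.27 times the autosomal signal on the long arm (Poisson interval 1.26 to 1.29, 26212 counts) and 0.692 on 20p12 (0.675 to 0.711, 5672 counts).

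The expectation by which the counts were divided was nearly equal on both sides. It averaged 337 units per bin on the long arm and 345 units on 20p12, so the difference in level is also a difference in counts per bin. Within the long arm it was less even, at 314 units in 20q11 and 380 in 20q12. Band 20q11 therefore differed from 20q12 and from 20p12 by more in level than in counts per bin. Across the bins of chromosome 20, level and expectation had a Spearman correlation of -0.218 (597 bins, which are neighbours in 1 map and not independent, and expectation is the divisor of the level). It was -0.306 among the bins of the long arm and -0.052 among those of 20p12. GC content, copy number and replication state of the sorted cells were not analysed, and their part in the difference was not tested.

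**Figure D1:**
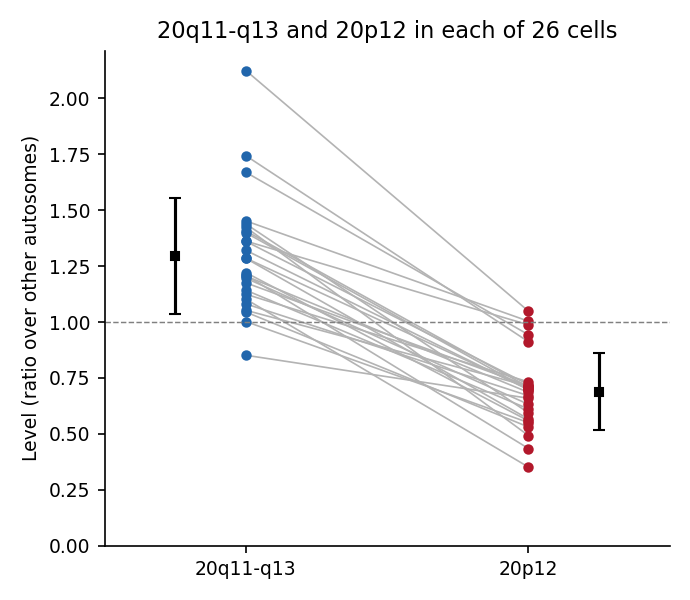
Level of 20q11-q13 (left) and 20p12 (right) in each of 26 cells, as ratio over the other autosomes of the same cell. Grey lines join the values of a cell and black squares give mean and SD. Every line is higher at its left end, and the means are 1.30 on 20q11-q13 and 0.689 on 20p12.

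The long arm is not raised evenly. Its excess sits in 20q11 and in the proximal part of 20q13, while 20q12 lies low between them. Band 20q11, from the centromere to 38 Mb, had a level of 1.80 ± 0.395 (SD, n = 26) and was above 1 in all 26 cells, with a lowest cell at 1.14 (cell 23), a median of 1.76 and a highest cell at 3.14 (cell 24). Against 20p12 it was 2.64-fold higher, a log2 ratio of 1.40 ± 0.40. It was the highest of the 6 regions p13, p12, p11, q11, q12 and q13 in 22 cells, and p13 was the highest in the other 4. Band 20q12 had a level of 0.778 ± 0.252, with a lowest cell at 0.392 (cell 3), a median of 0.738 and a highest cell at 1.37 (cell 24), and was below 1 in 20 cells. It was the lowest of the 6 regions in 7 cells, against 17 cells for 20p12 and 2 for 20p13. Against 20p12 itself, 20q12 was higher in 19 cells and lower in 7, with a mean log2 ratio of 0.15 ± 0.39, a mean smaller than the SD between cells.

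Within 20q11 the zones were close in level. Band 20q11.1-q11.21, where ASXL1, a chromatin regulator mutated in myeloid leukaemia, the helix-loop-helix inhibitor ID1 and BCL2L1 lie, was at 1.77 ± 0.547 (SD, n = 26). It was above 1 in 24 cells, and cell 22 was lowest at 0.437. Band 20q11.22, the site of the cell cycle transcription factor E2F1 and of AHCY, which breaks down S-adenosylhomocysteine, was at 1.99 ± 0.878. Its highest cell was cell 22 at 5.57, its median was 1.86, and without cell 22 it was at 1.85 with an SD of 0.499. Band 20q11.23, with the tyrosine kinase SRC and the retinoblastoma-like protein RBL1, was at 1.72 ± 0.359 and above 1 in all 26 cells, from 1.30 to 3.08. The SDs of the 3 zones span their differences.

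Band 20q12 holds TOP1, the DNA topoisomerase, and PTPRT, a very large receptor phosphatase gene. Its 4 windows of 1 Mb were uneven. The window from 39000001 to 40000000 stood at 1.13 ± 0.544, above 1 in 14 cells. The last, from 41000001 to 42000000, stood at 0.524 ± 0.216 and was below 1 in all 26 cells. At the limit set here for 20q13.1, rounded to whole Mb, the level stepped up. The next window, from 42000001 to 43000000, was at 1.10 ± 0.446 and was the higher of this pair in 25 cells.

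Band 20q13 was highest in its proximal zone. Its proximal zone 20q13.1, from 42 to 50 Mb, was at 1.44 ± 0.272 (SD, n = 26) and above 1 in all 26 cells, though the lowest cell, cell 17, was at 1.00. MYBL2, a cell cycle transcription factor, CEBPB, a regulator of myeloid differentiation, the purine enzyme ADA and HNF4A, a liver transcription factor, lie there. Zone 20q13.2, with NFATC2, SALL4, ZNF217 and the mitotic kinase AURKA, averaged 1.09 ± 0.372, with 13 cells above and 13 below 1. Zone 20q13.31-q13.32, with GNAS, BMP7 and PCK1, averaged 1.07 ± 0.432, above 1 in 12 cells. The end of the arm, 20q13.33, where CDH4 and EEF1A2 lie, was at 0.957 ± 0.239, again with 13 cells on each side. Its terminal window, from 62000001 to 63000000, stood higher, at 1.36 ± 0.535, above 1 in 18 cells and above the window before it in 21. The last 3 zones did not differ from the autosomal mean beyond the spread between cells.

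Zone 20q13.2 owes its middle value to an alternation rather than to an even level. The window from 50000001 to 51000000 was at 1.69 ± 0.802, and the next was at 0.622 ± 0.562, lower in all 26 cells. The window from 52000001 to 53000000 was then at 1.93 ± 0.850, higher than its predecessor in 25 cells. From 53000001 to 54000000 the level was 0.527 ± 0.335, lower than the window before it in 25 cells. These are the 3 largest steps between neighbouring windows on the chromosome, with log2 values of -1.44, 1.63 and -1.87, and were picked for their size.

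**Figure D2:**
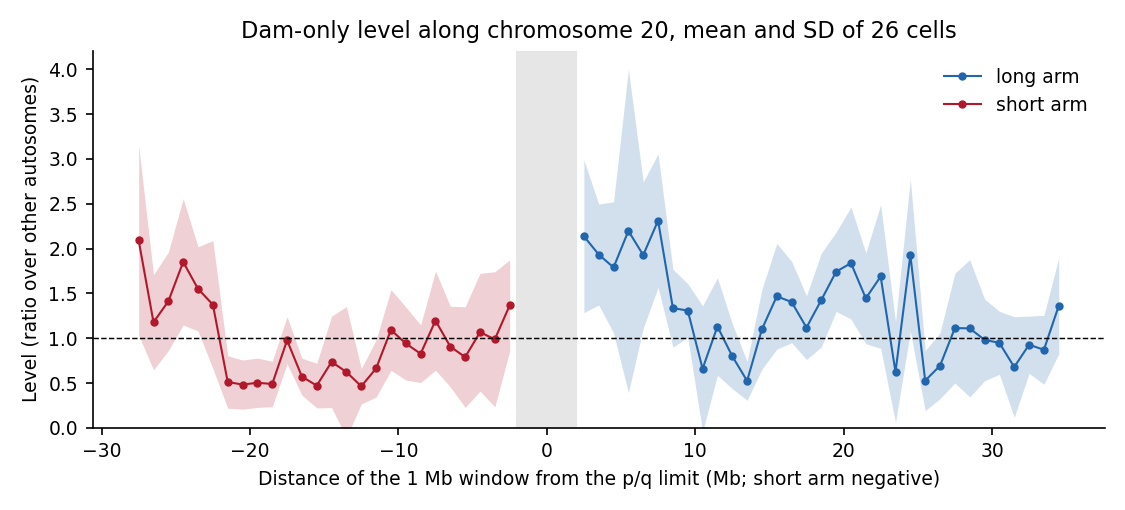
Level in 1 Mb windows along chromosome 20, against distance from the limit between the arms (grey, windows without enough bins). Lines are means and shaded bands SDs over 26 cells, cut at 0. The long arm (blue) reaches 2.31 in its proximal part and the short arm (red) drops to 0.463 in 20p12.

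The short arm had its own order, with a high end, a low middle and a proximal part near 1. The terminal band 20p13, from 0 to 5 Mb, was at 1.62 ± 0.530 (SD, n = 26), above 1 in 24 cells, with a median of 1.61. It holds the prion protein gene PRNP and CDC25B, a phosphatase that drives entry into mitosis. Cell 17, at 0.116, and cell 22, at 0.803, were the 2 cells below 1. The value was 1.68 without cell 17. Against 20p12 the log2 ratio of 20p13 was 1.14 ± 0.85, positive in 24 cells, and without cell 17, which was at -2.24, it was 1.27 ± 0.51.

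The 3 zones of 20p12 had like means over their full length. Band 20p12.3, with PCNA, the sliding clamp of DNA replication, BMP2 and PLCB1, was at 0.718 ± 0.272, below 1 in 22 cells. It was 0.743 without cell 17. Band 20p12.2, with JAG1 and the synaptic gene SNAP25, was at 0.679 ± 0.173, below 1 in 24 cells. Band 20p12.1, with MACROD2, a very large gene at a known fragile site, FLRT3 and KIF16B, was at 0.675 ± 0.239. It was below 1 in 25 cells, and the exception was cell 22 at 1.49. These differences were smaller than the SD of each zone. They depend on the zone edges: with 1 Mb left out on each side, 20p12.3 was at 0.497 ± 0.224, 20p12.1 at 0.621 ± 0.315 and 20p12.2 at 0.977 ± 0.262, the last from a single window with 13 cells above 1.

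Low values within 20p12 were interrupted at its ends and once in between. The window from 5000001 to 6000000, which adjoins 20p13, was at 1.37 ± 0.714 and above 1 in 19 cells, and the next window fell to 0.512 ± 0.292, lower in 25 cells. At 10000001 to 11000000 the level was 0.977 ± 0.262, with 13 cells on each side of 1, and it exceeded the window before it in 24 cells. The last window, at 17000001 to 18000000, was at 1.09 ± 0.450. The other 10 of the 13 windows of 20p12 were below 1 in at least 21 cells each, with means down to 0.463.

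Proximal 20p11 was close to the autosomal mean. Band 20p11.23, with the neuroendocrine transcription factor INSM1, was at 0.988 ± 0.315 and above 1 in 8 cells. The remainder up to the centromere, where PAX1, FOXA2 and thrombomodulin (THBD) lie, was at 0.999 ± 0.402 and above 1 in 6 cells, with cell 22 at 2.58. Its median was 0.893, and without cell 22 its mean was 0.935 ± 0.245.

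Zones count as above or below 1 where 21 or more of the 26 cells do. Of the 14 zones, 5 were placed above 1, namely 20p13, all 3 zones of 20q11 and 20q13.1. The 3 zones of 20p12 were placed below 1, and 6 zones were on neither side. Without cell 22, or without cell 24, 5 zones were below, because 20q12 and the zone from 20p11.22 to the centromere, each below 1 in 20 cells, then passed as well: with 25 cells the same share of 80% asks for 20.

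**Figure D3:**
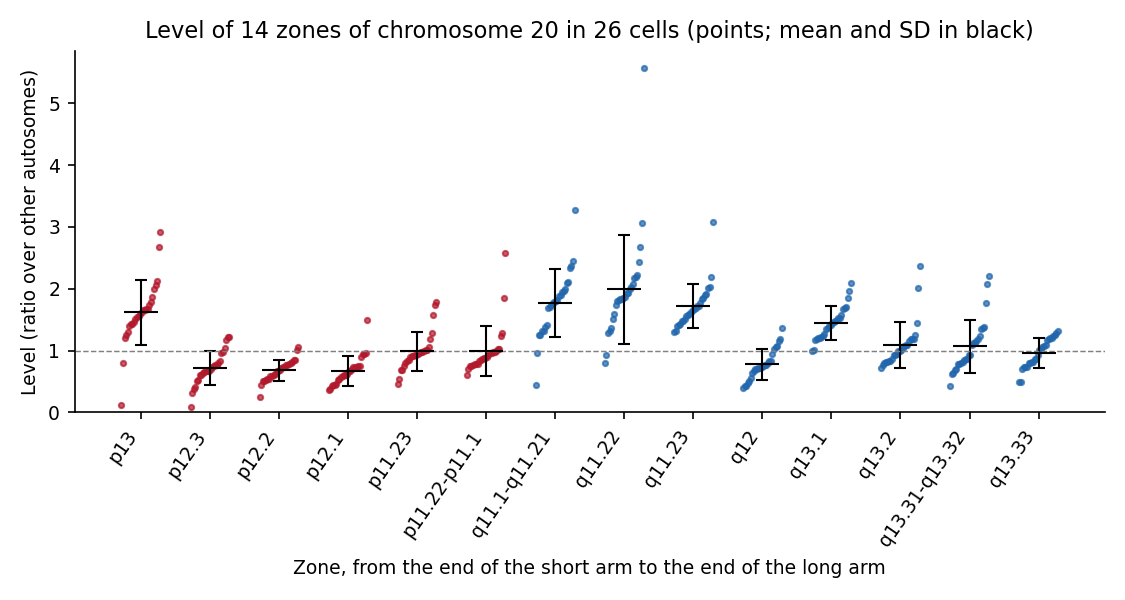
Level of the 14 zones of chromosome 20, ordered from the end of the short arm to the end of the long arm. Each point is 1 of 26 cells, sorted within a zone, and black marks give mean and SD. The 3 zones of 20p12 lie around 0.7 and the 3 zones of 20q11 between 1.72 and 1.99.

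On the scale of 1 Mb, 59 windows of the chromosome had at least 8 used bins. Of these, 17 were above 1 and 16 below 1 in at least 21 cells. Of the 5 highest windows, 4 lay in 20q11 and 1 at the tip of the short arm. The top window, from 35000001 to 36000000 in 20q11.23, averaged 2.31 ± 0.744 (SD, n = 26) and was above 1 in 25 cells, with a lowest cell at 0.90 (cell 23) and a median of 2.29. After it came 33000001 to 34000000 at 2.20 ± 1.80 (1.86 ± 0.508 without cell 22, which reached 10.7), 30000001 to 31000000 at 2.14 ± 0.853, the terminal window of 20p13 from 1 to 1000000 at 2.09 ± 1.06, and 31000001 to 32000000 at 1.93 ± 0.563. The 5 lowest windows were all in 20p12. They ran from 0.463 ± 0.198 at 15000001 to 16000000, in all 26 cells below 1, through 0.471 ± 0.249 at 12000001 to 13000000, also below 1 in all 26. The windows from 7000001, 8000001 and 9000001 followed at 0.482 ± 0.274, 0.503 ± 0.275 and 0.489 ± 0.253.

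Single bins showed how far cells share this map. Positive here means a ratio of at least 1. What this asks for depends on depth, as cells had from 0.824 to 8.75 counts per used bin of the chromosome. In the shallowest cells 1 count can suffice, while cell 1 needs several. On chromosome 20, 54 bins (9.05%) reached this in 80% of cells or more, where the share over all used bins was 5.61%. Another 140 bins (23.5%) reached it in no more than 20% of cells, where the share over all used bins was 33.5%. Shared bins made up 23.5% of 20q11 (20 of 85) and 11.6% of the whole long arm (39 of 335), against 2.31% of 20p12 (3 of 130). Rarely positive bins made up 18.2% of the long arm (61 bins), against 52.3% of 20p12 (68 bins). In 20q12 no bin of 40 was shared and 19 (47.5%) were rare, and in 20p13 only 1 of 50 was rare. Counting single bins, 2 reached a ratio of 1 in each of the 26 cells and 2 in no cell.

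The 54 shared bins fell into 38 blocks, 27 of them of 1 bin, and the 140 rare bins into 64 blocks, 34 of them of 1 bin. The longest shared block, of 4 bins in 20q13.2 at 52200001 to 52600000, had a level of 3.36 ± 1.90 (SD, n = 26), above 1 in 25 cells, with cell 22 lowest at 0.749 and cell 24 highest at 9.90. Blocks of 3 bins lay in 20p13 at 200001 to 500000 (3.15 ± 1.97) and in 20q11.21 at 31200001 to 31500000 (3.18, with an SD of 1.2), and 1 more in 20q13.1 at 45900001 to 46200000 (2.85 ± 1.35). The longest rare block spanned 10 bins of 20p12.3, from 6200001 to 7200000, at 0.456 ± 0.239, and was below 1 in 25 cells. It was followed, after 1 bin, by a block of 6 bins from 7300001 to 7900000 at 0.386 ± 0.234, below 1 in all 26. Blocks of 6 bins also lay in 20p12.1 at 12300001 to 12900000 (0.347 ± 0.263) and in 20q12 at 41400001 to 42000000 (0.525 ± 0.207). A block of 7 bins at 51000001 to 51700000 in 20q13.2 stood at 0.537 ± 0.609, where cell 22 reached 3.27, and at 0.428 ± 0.251 without it.

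The extreme bins were ranked among those with an expectation of at least 0.5 times the median. The highest stretch was the pair of bins from 52200001 to 52400000 in 20q13.2. It averaged 4.20 ± 2.52 from 392 counts, with a lowest cell at 0.899 (cell 22), a median of 3.67 and a highest cell at 10.7 (cell 24). Next were 31200001 to 31400000 in 20q11.21, at 3.75 with an SD of 1.6 and positive in all 26 cells, and 34300001 to 34400000 in 20q11.23, at 3.80 ± 3.04 and also positive in all 26. Cell 22, at 16.4, lifts the mean of the 20q11.23 bin above its median of 3.05. The bin at 300001 to 400000 in 20p13 averaged 3.71 ± 2.26 and was at 0 in cell 17 alone. The remaining one, at 10400001 to 10500000, lies inside the low band 20p12.2. It averaged 3.48 ± 2.06 from 204 counts and was positive in 23 cells.

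The 5 lowest bins were all in 20p12. The bin from 15000001 to 15100000 in 20p12.1 averaged 0.133 ± 0.268 from 9 counts and was at 0 in 19 cells. That from 12500001 to 12600000 averaged 0.218 ± 0.292 from 13 counts. The bin from 6500001 to 6600000 averaged 0.240 ± 0.417 from 30 counts, of which cells 1 and 5 gave levels of 1.39 and 1.52. Bins from 12700001 and from 7300001 averaged 0.256 ± 0.550 and 0.262 ± 0.347. A value of 0 in such a bin means no count at this depth and does not show that the DNA was closed.

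Cell 17 lacked nearly all signal on the distal short arm. There the first 9 Mb, that is 20p13 and 20p12.3, held 17 counts, where the other 25 cells scaled to its depth gave 200.9. This is a ratio of 0.0846, against 0.458 to 1.75 when each of the other cells was treated the same way. From 9 Mb to the centromere cell 17 held 240 counts, where 243.6 were expected from the others, a ratio of 0.985. The change lay between neighbouring windows: 4 counts against 10.0 at 8000001 to 9000000, and 20 counts against 9.8 at 9000001 to 10000000. The terminal window held 0 counts against 34.9, which allows a ratio of up to 0.086 at 3 counts. The 17 counts fell in 15 of the 90 bins.

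Such a gap was rare in these cells on the scale of 5 Mb. Over all chromosomes, 13083 pairs of cell and 5 Mb block had at least 20 counts expected from the other cells, and 37 of them were under 0.25 of that number, 30 of these in cell 22. On chromosome 20 it was 1 of 286 pairs, the terminal block of cell 17, which was also the only such block of cell 17 in the genome. Of the 364 pairs of zone and cell on chromosome 20, 3 were under 0.25, namely 20p13 and 20p12.3 in cell 17 and 20q11.1-q11.21 in cell 22, where 9 counts stood against 36.0. Shorter stretches without any count were not particular to cell 17. Its longest had 18 used bins, from 6300001 to 8100000, where 17.2 counts were expected from the others. Cell 11 had 19 such bins from 7900001 to 9800000, where 17.8 were expected. Whether the DNA was present in cell 17 was not tested. The contrast of the arms was 0.42 without cell 17 and that of 20q11-q13 with 20p12 was 0.93.

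**Figure D4:**
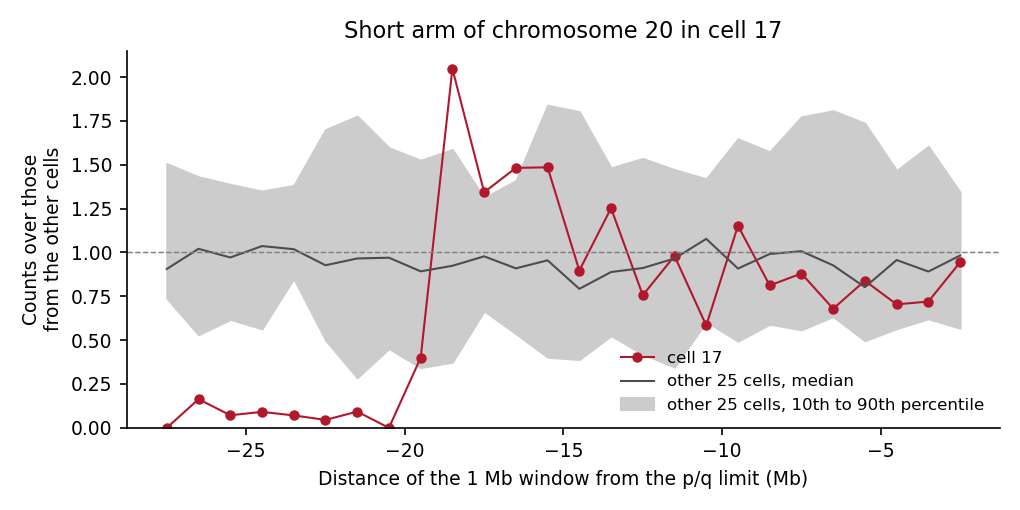
Counts of cell 17 in 1 Mb windows of the short arm, divided by the counts that the other cells give at its depth (red), against distance from the limit between the arms. The grey line and band are the median and the 10th to 90th percentile of the other 25 cells treated the same way. Over the distal 9 windows cell 17 holds at most 4 counts each, and beyond them its ratio is within 0.584 to 2.05.

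Cells 24 and 22 differed from most others in another way. In cell 24 every zone except 20p11.23 was above the value from the other cells. These ran from 1.34 times in 20q13.1 to 2.20 times in 20p11.22-p11.1 and in 20q13.31-q13.32. In 20p11.23 cell 24 held 39 counts against 38.9, and its level there was 0.932. Cell 20 had every zone above the value from the other cells, from 1.10 times in 20p12.2 to 1.76 times in 20p11.23. The 1427 counts of cell 24 on the chromosome gave the highest level, 1.87, and the next cells were cell 20 at 1.53 and cell 22 at 1.46. In cell 22 zones ran from 0.25 times in 20q11.1-q11.21 to 3.16 times in 20p11.22-p11.1, next to each other across the centromere. Cell 22 had 21106 counts in all and the smallest share of bins above 0. Copy number was not analysed.

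From cell to cell, regions of the chromosome went up and down together to different degrees. Over the 26 cells the Pearson correlation of levels was 0.80 for 20q11 and 20q13 and 0.642 for 20p12 and the whole long arm. It was 0.245 for 20p13 and 20p12, which adjoin each other, and 0.172 for 20p13 and 20p11. The points share the cell, its depth and its division by the other autosomes, and no p is given. Over the 23 cells other than 17, 22 and 24 the correlations were lower for the first 3 pairs, at 0.617, 0.432 and 0.102, and 0.319 for 20p13 and 20p11. The level of the chromosome had a correlation of -0.058 with the total counts of the cell, and the contrast of 20q11-q13 with 20p12 one of -0.043.

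Compared with the other chromosomes, chromosome 20 ranked higher by the contrast of its arms than by its level. Its level ranked 7 of 22 chromosomes, the rearranged 9 and 22 counted as the table names them, and chromosomes 16, 17 and 19 were higher at 1.23 ± 0.182, 1.48 ± 0.214 and 1.66 ± 0.494, while chromosome 21 was at 0.995 ± 0.212. Of the 16 chromosomes whose arms could be compared, it ranked 2 by log2 ratio of long over short arm after chromosome 5, at 0.43 against 0.44 ± 0.34. By size in either direction the contrast of chromosome 20 ranked 3. The largest was that of chromosome 6, at -0.61 ± 0.18, with the short arm higher in all 26 cells. On chromosome 16 the long arm was also the lower one, at -0.31 ± 0.17. Only chromosomes 5, 11 and 20 had the long arm higher in at least 21 cells. The share of shared bins, 9.05%, was close to that of chromosome 16 (9.10%) and below those of chromosomes 17 (13.5%) and 19 (20.9%). No test of these differences was made.

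**Figure D5:**
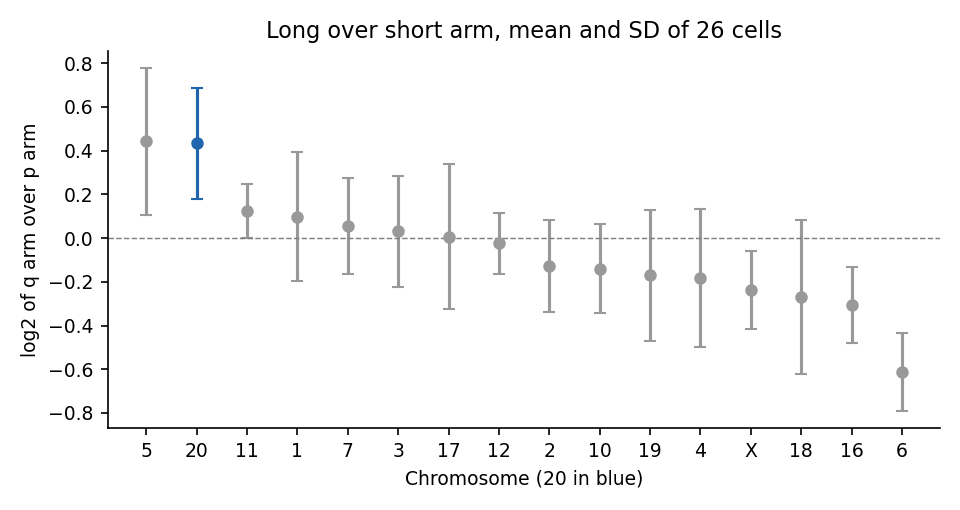
Log2 ratio of long over short arm on the 16 chromosomes with both arms covered, as mean and SD over 26 cells. Chromosome 20 (blue) is second from the left at 0.43, next to chromosome 5 at 0.44, and chromosome 6 is lowest at -0.61.

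By gene content chromosome 20 also lies in the upper part of the autosomes. RefSeq lists 537 protein-coding genes on it, or 8.99 per Mb of used bins, rank 7 of the 19 autosomes compared, among which its level ranked 5. Across these autosomes the level and the gene density had a Pearson correlation of 0.918 and a Spearman correlation of 0.895. The points are chromosomes of 1 set of cells and share 1 normalization, and the gene counts are from another build. All genes of a chromosome were divided by its used bins only, so genes in unused bins raise the density. Chromosome 15, with 617 genes against 509 used bins, ranked 3 by density. How far this moves the rank of chromosome 20 and the correlations was not tested. Chromosome 8 has no values and enters no comparison between chromosomes. Gene density was not computed for bands, since no annotation of the build of the files was used.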

How the data were processed

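Single-cell DamID of 26 KBM7 cells was taken from 1 deposited table. Reads were processed with cutadapt and Bowtie2 2.1.0 on hg19, per the submitters' processing notes. In the deposited table each cell has, for every 100 kb bin, the authors' ratio of observed over expected signal on a linear scale. The sources used here do not give how the expectation was built, which bins were masked or whether PCR copies were removed.

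Within a bin the ratios of a cell are whole multiples of a step, from which counts and expectations were recovered. Recovered counts lay within 2.26e-08 of whole numbers, where 0.001 was allowed. Expectations came out as whole multiples of 1 unit, with a median of 316 units per bin, and what a unit stands for is not stated. In bins with few counts both numbers are known only up to a common factor. On simulated data with the real depths, counts were recovered in 100.0% of 26288 bins, and 10 of 10 shifted zones of chromosome 20 were placed on the right side of 1, at most 5.68% off. The simulated ratios were built in the form that the recovery assumes, so the recovery of counts was largely fixed in advance. The simulated cells all shared 1 level per zone and had counting error only, while the real cells also differ in level. How zones are placed under such differences was not tested. Neither were levels nearer 1 than the simulated shifts, such as those measured for 20q13.2 and 20q13.33.

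Named regions were the 5 highest and 5 lowest windows and bins, the 3 longest blocks each way with blocks of equal length, and all 14 zones. The members, lists and rules were chosen with earlier results of these data known. Steps between windows, and the measures of cells 17, 22 and 24, were chosen after the values were seen. The 37 genes listed as background of the bands are all on chromosome 20 in RefSeq, in the order of the bands. Alternatives left out single cells, bins of low expectation or band edges, capped ratios, used summed counts, thinned the cells or changed the value for positive. Tools were scipy 1.17.1, numpy 2.4.6, matplotlib 3.10.9 and pandas 2.3.3 under Python 3.11.15.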

Additional observations from a re-analysis of the deposited data

How the results depend on the processing

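Of 78 recomputed values that answer a comparison, 68 stayed within the SD over cells or, for counts, within 1.5 times. Some of these could not change. The arm contrast was the same with 1 Mb left out, because no used bin lies within 1 Mb of its limit. That of 20q11-q13 with 20p12 was the same with bins at 0 in all cells kept, since none lies in either part. No direction turned, but counts have none and zones on neither side of 1 were not judged. Means of such zones did cross 1: 20q13.2 ran from 0.984 to 1.13 and 20q13.33 from 0.942 to 1.06. So did 20p11.23, from 0.827 to 1.06, and 20p11.22-p11.1, from 0.935 to 1.03. The 0.827 of 20p11.23 came with 1 Mb left out on each side, which leaves a single window. The next lowest was 0.978. The log2 ratio of 20q11-q13 over 20p12 stayed between 0.81 and 1.17 in 12 alternatives and was positive in every cell in each, but was 1.40 with 20q11 alone. The arm contrast stayed between 0.40 and 0.47 and the level of the chromosome between 1.12 and 1.17. Zones below 1 numbered 3, 5 without cell 22 or without cell 24, and 2 with 1 Mb left out at zone edges. Shared bins numbered 54, but 155 when a ratio of 0.5 sufficed, 6 when 2 was needed and 82 after dropping the 6 cells with lowest coverage. Rare bins numbered 140, but 62 with every cell thinned to 20000 counts, 16 when a ratio of 0.5 sufficed and 412 when 2 was needed. The mean Spearman correlation between cells over the bins of the chromosome was 0.278, and 0.172 with thinned counts. Thinning left 49 shared bins, so at thinned depth the number of rare bins moved by over 1.5 times and that of shared bins did not. Dropping cells also changes how many cells make 80%. Of 153 recomputed zone levels, 1 moved by more than its SD: 20p12.2, at 0.977 when 1 Mb was left out on each side, which leaves a single window. Leaving out cells 17 and 24 was chosen after the data were seen. Cells could not be paired between groups because all form 1 group. The contrasts between regions were taken within each cell.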

Other observations

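Positive bins of a cell formed runs, longest mainly on the long arm. The mean run of consecutive positive bins on chromosome 20 was 2.24 ± 0.364 bins (SD, n = 26 cells), and 41.6% ± 5.98 of the bins of a cell were positive. The longest run of a cell had a median of 12 bins, from 7 in cell 26 to 47 in cell 1, the cell of highest depth. In 23 cells it lay on the long arm and in cells 6, 11 and 23 in 20p13. The long arm holds 335 of the 597 bins. Of its values 46.5% were positive, against 35.3% on the short arm. The runs that these shares alone would give were not computed. The run of 47 bins in cell 1 spanned 31800001 to 36500000, across most of 20q11.

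Neighbouring bins had like mean levels, and the likeness faded within a few Mb. The Pearson correlation of mean levels was 0.650 for bins 0.1 Mb apart (593 pairs), 0.313 at 0.5 Mb, 0.256 at 1 Mb and 0.019 at 5 Mb. From cell to cell, the mean correlation was 0.159 at 0.1 Mb, 0.056 at 1 Mb and 0.041 at 10 Mb. Pairs of bins overlap and are not independent.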
